A study of Homo sapiens with 4 samples.

Results

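The genes described here are 10 members of the TRAIL and death receptor pathway, of 18417 genes named by the array's annotation. They are TNFSF10, TNFRSF10A, TNFRSF10B, FAS, TNFRSF1A, TNFRSF10D, FADD, CASP8, CASP10 and CFLAR, and they were taken by gene symbol, which gave 11 probe sets of 33252. CFLAR has 2 probe sets and the other members have 1 each. RNA came from 2 human blood cancer lines. U266 is a multiple myeloma line, and its cells received 15 µM atovaquone or the vehicle DMSO for 2 h. K562 is a chronic myeloid leukaemia line, and its cells received 20 µM atovaquone or DMSO for 5 h. The culture medium of all groups was RPMI-1640 plus fetal serum. Atovaquone is an antimalarial drug known to inhibit mitochondrial electron transport at complex III. There was 1 array per group and so no replicate. No statistical test was run, no error can be given for a value, and a ratio compares one array with another, not one condition with another. Dose and time both differ between the lines, so a difference in response cannot be assigned to the line. The responses are given side by side, and no difference between them was tested.

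Death receptors of the TNF receptor family carry an intracellular death domain. When TRAIL or Fas ligand gathers its receptor on the cell surface, the adaptor FADD is recruited and brings in the initiator caspases, which cut and activate the executioner caspases. The protein c-FLIP competes for places in that complex, and decoy receptors bind TRAIL without a working death domain. The TNF receptor uses the same parts in a later complex and signals first to NF-kB. TRAIL receptors are studied in myeloma and leukaemia because TRAIL kills many tumour cell lines.

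Promoter sequences from RefSeq (GRCh38.p14) were matched by symbol for 6 members, TNFSF10, FAS, TNFRSF1A, FADD, CASP8 and CFLAR, with 13 start sites in all, some of whose windows overlap. The 250 bases before the start are shown for TNFSF10, a member that was higher with atovaquone in K562, and for FAS, the member that reached the measuring range in U266 but not in K562. The TNFSF10 window is chr3:172523431-172523680 on the minus strand, and the FAS window is chr10:88990548-88990797 on the plus strand, at the first of 3 listed starts. Each is written 5′ to 3′ in the direction of the gene, and capitals mark the motifs found.
TNFSF10: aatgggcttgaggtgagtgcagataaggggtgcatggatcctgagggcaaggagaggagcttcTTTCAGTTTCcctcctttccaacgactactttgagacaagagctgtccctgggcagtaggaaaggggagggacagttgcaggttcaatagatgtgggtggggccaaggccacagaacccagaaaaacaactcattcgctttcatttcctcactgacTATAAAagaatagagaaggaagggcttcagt
FAS: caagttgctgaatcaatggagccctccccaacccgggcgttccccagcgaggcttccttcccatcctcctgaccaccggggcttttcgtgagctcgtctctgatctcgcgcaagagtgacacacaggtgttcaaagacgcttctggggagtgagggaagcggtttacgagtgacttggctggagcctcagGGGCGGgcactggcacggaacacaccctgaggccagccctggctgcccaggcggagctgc
The capitals in the TNFSF10 window are a TATA box, TATAAA, that begins 31 bases before the start, and an interferon response core, GAAA and GAAA with any 2 bases between them, that begins 187 bases before it and reads on the opposite strand. In the FAS window they are a GC box, GGGCGG, that begins 60 bases before the start, and no TATA box was found there. Both strands were searched, and no match overlapped another motif in the windows shown. Among 35116 start sites of the table, the same length of sequence held the TATA box in 10.7%, the interferon core in 3.02% and the GC box in 42.6%. Among the 13 windows of members, 7 held the GC box, in CASP8, CFLAR, FADD and FAS, and 2 held the TATA box, in CASP8 and TNFSF10. The core of the ATF4 and C/EBP composite element, TGATGNAA, was in 3.14% of all windows and in 0 of the 13 windows of members. The FOXO element GTAAACA was in 2.98% of all windows and the heat shock element core, GAA, TTC and GAA with any 2 bases between each, in 0.441%, and neither was in a window of a member. These matches describe letters in a short window only. For the motifs that no member window held, the share over all windows was low, so 0 among 13 windows says little. TNFRSF10A, TNFRSF10B, TNFRSF10D and CASP10 had no window to search.

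Values are the deposited intensities of probe sets on a linear scale. The level of one probe set cannot be set against that of another. An intensity was taken as measured when it reached its array's floor, the 40th percentile of annotated probe sets, which was 324 with atovaquone and 331 with vehicle in U266, and 306 with atovaquone and 305 with vehicle in K562. Array medians over all probe sets lay between 314 and 340. Of 10 plasma cell markers with a probe set, 9 were at least 1.5-fold higher on the U266 vehicle array than on the K562 vehicle array, and CD38 was the exception. Of 9 erythroid markers, 8 were at least 1.5-fold lower in U266 and EPB42 was below the floor in both lines. Among markers of T cells, natural killer cells and monocytes, 2 of 9 reached the floor in U266 and 5 of 9 in K562. On the U266 vehicle array they were CD3E at 475 and CD8A at 455. On the K562 vehicle array they were CD3E at 375, CD3D at 476, CD8A at 530, CD14 at 483 and LYZ. CD2, CSF1R and the natural killer genes NKG7 and PRF1 did not reach it on either vehicle array. The myeloid gene LYZ stood at 138 in U266 and 3113 in K562. Fibroblast and epithelial markers reached it for 3 of 9 genes in U266 and 6 of 9 in K562. Among them KRT8 at 3588, KRT18 at 3255 and EPCAM at 1975 were far above the floor on the K562 vehicle array. By its definition the floor was reached by 59.998% of annotated probe sets on each array. The K562 counts of both marker lists lay near that share, and the U266 counts lay below it. The summed intensity of each of these 4 marker lists was close between the arrays of a line. It was 43771 with atovaquone and 42024 with vehicle for plasma cell markers in U266, 5984 with atovaquone and 5233 with vehicle for the same markers in K562, and 23942 with atovaquone and 23030 with vehicle for erythroid markers in K562. Among plasma cell markers XBP1, a transcription factor of the unfolded protein response, was 1.55-fold higher with atovaquone in K562.

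In K562 the TRAIL receptor gene TNFRSF10B was 2.02-fold higher and the TRAIL gene TNFSF10 was 1.61-fold higher with atovaquone, while the other TRAIL receptor gene with a death domain, TNFRSF10A, was 1.44-fold lower. The adaptor, the initiator caspases and the brighter CFLAR probe set had K562 log2 ratios between -0.17 and 0.31. In U266 no member was 1.5-fold different in either direction. Only 1.15% of all genes at the floor on at least 1 array were, so this count says little. On the vehicle arrays FAS, FADD, CASP8 and CFLAR were at least 1.5-fold brighter in U266, and TNFRSF10B and TNFRSF1A in K562. Between those arrays 38.7% of all such genes differed by 1.5-fold or more. Bulk RNA cannot tell fewer expressing cells from less RNA per cell.

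**Figure D1:**
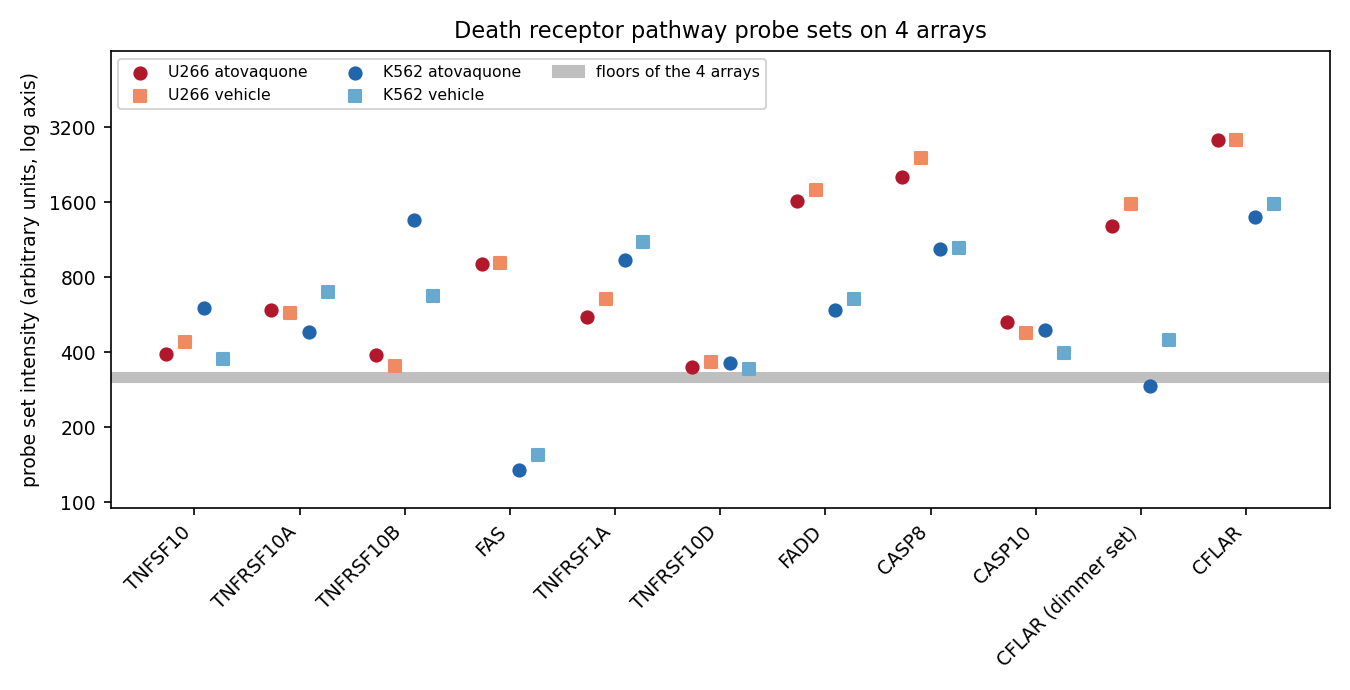
Intensity of each pathway probe set (log axis, arbitrary units) on the 4 arrays, with U266 in red tones and K562 in blue tones, circles for atovaquone and squares for vehicle, and a grey band over the floors of 305 to 331. FAS lies under the band on both K562 arrays, and TNFRSF10B is highest on the K562 atovaquone array at 1358.

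TNFSF10 encodes TRAIL, the ligand of the pathway. Its probe set, 8092169, had an intensity of 393 with atovaquone and 440 with vehicle in U266, and of 605 with atovaquone and 377 with vehicle in K562. The K562 atovaquone array was the high value of the 4, and the other 3 lay close to each other and not far above the floor. The log2 ratio of atovaquone to vehicle was 0.69 in K562, a size that 1.19% of the 10756 genes measured there reached in either direction. In U266 it was -0.15, which 22.9% of 10731 measured genes reached. Between the vehicle arrays TNFSF10 differed little, with a log2 ratio of U266 to K562 of 0.25.

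TNFRSF10B encodes DR5, a TRAIL receptor with a death domain that is known to be induced by the stress transcription factor CHOP. Probe set 8149733 read 390 with atovaquone and 352 with vehicle in U266, and 1358 with atovaquone and 676 with vehicle in K562. Both K562 values lay above both U266 values, and the U266 vehicle value was just above the floor of 331. The K562 log2 ratio was 1.01, and 0.381% of measured genes were as far from 0. In U266 the ratio was 0.16 on the log2 scale, against 21.1% of measured genes at least as far from 0. On the vehicle arrays TNFRSF10B was lower in U266, with a log2 ratio of -0.92, a ratio it lacked under a 60th percentile floor.

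TNFRSF10A encodes DR4, the other TRAIL receptor with a death domain. Its intensities on probe set 8149762 were 593 with atovaquone and 577 with vehicle in U266, and 484 with atovaquone and 700.3 with vehicle in K562. The K562 pair held both the lowest and the highest of the 4 values. In K562 the log2 ratio was -0.53, short of the 1.5-fold line, and 3.01% of measured genes were as far from 0. The U266 log2 ratio was 0.05, and the vehicle arrays differed by -0.25, U266 over K562. So in K562 the genes of DR5 and DR4 stood on opposite sides of 0. By gene order in the RefSeq table of GRCh38.p14, TNFRSF10B, TNFRSF10C, TNFRSF10D and TNFRSF10A are consecutive protein-coding genes on chromosome 8. With the floor at the 60th percentile TNFRSF10A lay under it on the K562 atovaquone array, which left an upper bound of -0.095.

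TNFRSF10D encodes the decoy receptor DcR2, which has a truncated death domain. Probe set 8149749 was near the floor on every array, at 351 with atovaquone and 366 with vehicle in U266, and at 362 with atovaquone and 342 with vehicle in K562. Its highest value was 1.07 times its lowest, the smallest spread of the 11 probe sets, and its log2 ratios were -0.05 in U266 and 0.09 in K562. TNFRSF10C, the gene of the other membrane decoy, has no value here because its probe set names a further gene.

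FAS encodes the receptor of Fas ligand on the cell surface. Its probe set, 7929032, read 905 with atovaquone and 917 with vehicle in U266, and 134 with atovaquone and 155 with vehicle in K562. Both K562 values lay under the floor and both U266 values well above it, so K562 has no FAS ratio for atovaquone. In U266 the log2 ratio was -0.011. The vehicle level was at least 3.06-fold higher in U266 than in K562, or at least 0.55 on the log2 scale with the floor at the 60th percentile.

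TNFRSF1A encodes the TNF receptor that carries a death domain. Its values on probe set 7960518 were 555 with atovaquone and 653 with vehicle in U266, and 939 with atovaquone and 1113 with vehicle in K562. The atovaquone array was the lower one in each line, with log2 ratios of -0.22 in U266 and -0.24 in K562. Sizes like these were reached by 10.3% of measured genes in U266 and by 21.6% in K562. The vehicle level was lower in U266, with a log2 ratio of -0.75 to K562.

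FADD encodes the adaptor that links receptors to caspases. Intensities on probe set 7942168 were 1628 with atovaquone and 1795 with vehicle in U266, and 594 with atovaquone and 654 with vehicle in K562. The lines were well separated, and the pair within each line was close. FADD had log2 ratios of -0.13 in U266 and -0.14 in K562. Its vehicle level was 2.79-fold higher in U266 than in K562.

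CASP8 encodes the main initiator caspase of the complex. Probe set 8047419 read 2022 with atovaquone and 2407 with vehicle in U266, and 1038 with atovaquone and 1052 with vehicle in K562. Here too the U266 values were the higher ones. The U266 log2 ratio of -0.24 was small, but it lay below the range that held the central 95% of 1432 genes of like intensity, -0.21 to 0.27. In K562 the ratio was -0.014. The vehicle level of CASP8 was 2.33-fold higher in U266. CASP10 encodes a related initiator caspase, and its probe set 8047403 read 531 with atovaquone and 478 with vehicle in U266, and 491 with atovaquone and 397 with vehicle in K562. CASP10 was a little higher on the atovaquone array of each line, with log2 ratios of 0.16 in U266 and 0.31 in K562, both inside the central 95% of measured genes. CFLAR, CASP10 and CASP8 are consecutive protein-coding genes on chromosome 2 in the same table.

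CFLAR encodes c-FLIP, which holds the initiator caspases in check, and its transcripts are annotated to 2 probe sets that share no listed transcript. The brighter, 8047381, read 2837 with atovaquone and 2840 with vehicle in U266, and 1396 with atovaquone and 1573 with vehicle in K562. The dimmer, 8047401, read 1287 with atovaquone and 1581 with vehicle in U266, and 293 with atovaquone and 450 with vehicle in K562. Both sets were brighter in U266, and the dimmer set lay under the floor on the K562 atovaquone array. The brighter set had log2 ratios of 0.0082 in U266 and -0.17 in K562. The dimmer set had a U266 log2 ratio of -0.29, below the central 95% of genes of like intensity, -0.25 to 0.34, and in K562 it was at least 1.46-fold lower, or -0.61 on the log2 scale with a lower floor. In U266 the sets differed by 0.30 in log2 ratio. Of 298 genes with 2 measured probe sets, 6.71% had a gap as large, and the median gap was 0.053. In K562 the gap was at least 0.38, as large as in 5.57% of 323 genes. For CFLAR the vehicle level in U266 over K562 was 1.84-fold on the brighter set and 3.58-fold on the dimmer set.

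**Figure D2:**
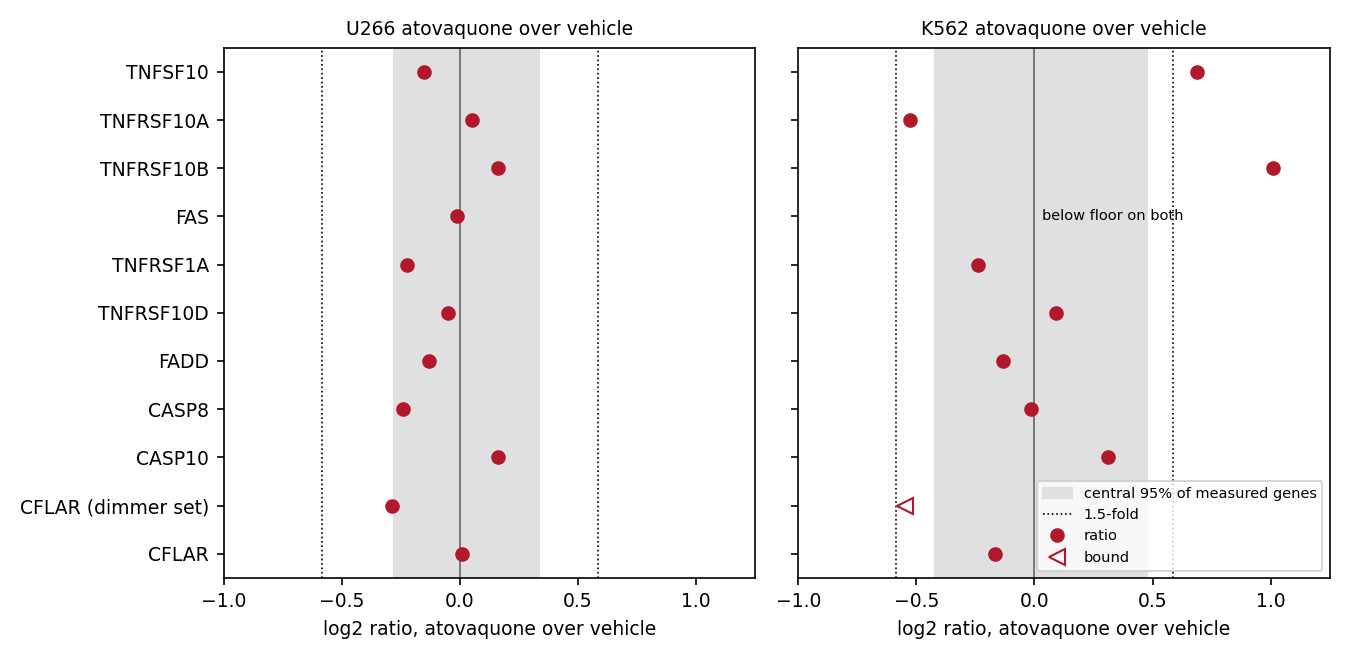
Log2 ratio of atovaquone to vehicle for each pathway probe set in U266 (left) and K562 (right), with filled circles for ratios, an open triangle for the upper bound of the dimmer CFLAR set, grey bands for the central 95% of measured genes and dotted lines at 1.5-fold. TNFRSF10B at 1.01 and TNFSF10 at 0.69 lie beyond the 1.5-fold line in K562, and no U266 point does.

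In K562 all 10 members had a probe set, 9 were measured on both arrays and FAS was below the floor on both. Of the 9, 2 were at least 1.5-fold higher with atovaquone, TNFRSF10B and TNFSF10, and 0 were at least 1.5-fold lower. Over all 11353 genes that reached the floor on at least 1 of the K562 arrays, 1.55% were at least 1.5-fold higher and 0.687% at least 1.5-fold lower, 2.24% in all. TNFRSF10B alone reached 2-fold, as did 0.317% of all genes in that direction. The median log2 ratio of the 9 was -0.014, beside -0.0057 over all measured genes, while their mean was 0.11, of the other sign. With 4 above 0 and 5 below, the members did not lean one way. The central 95% of measured genes in K562 lay between -0.42 and 0.48, so TNFRSF10B, TNFSF10 and TNFRSF10A were outside it and the other 6 inside. They were also outside the range of genes of like intensity, which was -0.46 to 0.53 for TNFRSF10B, -0.45 to 0.53 for TNFSF10 and -0.47 to 0.57 for TNFRSF10A. In these counts CFLAR stands by its brighter probe set. Its dimmer set had an upper bound of -0.55, below the central range and below its like-intensity range of -0.38 to 0.44. Without a floor the dimmer set stood at -0.61, past 1.5-fold in the lower direction. With the floor at the 60th percentile TNFSF10 lay under it on both K562 arrays and had no ratio.

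In U266 all 10 members were measured on both arrays and 0 were at least 1.5-fold different, against 1.15% of the 11264 genes that reached the floor on at least 1 array, 1.00% higher and 0.142% lower. Their log2 ratios ran from -0.24 for CASP8 to 0.16 for CASP10, inside the central 95% of measured genes, -0.28 to 0.34, while the dimmer CFLAR set lay just outside at -0.29. The median was -0.031, beside -0.0001 over all measured genes, with 4 members above 0 and 6 below.

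**Figure D3:**
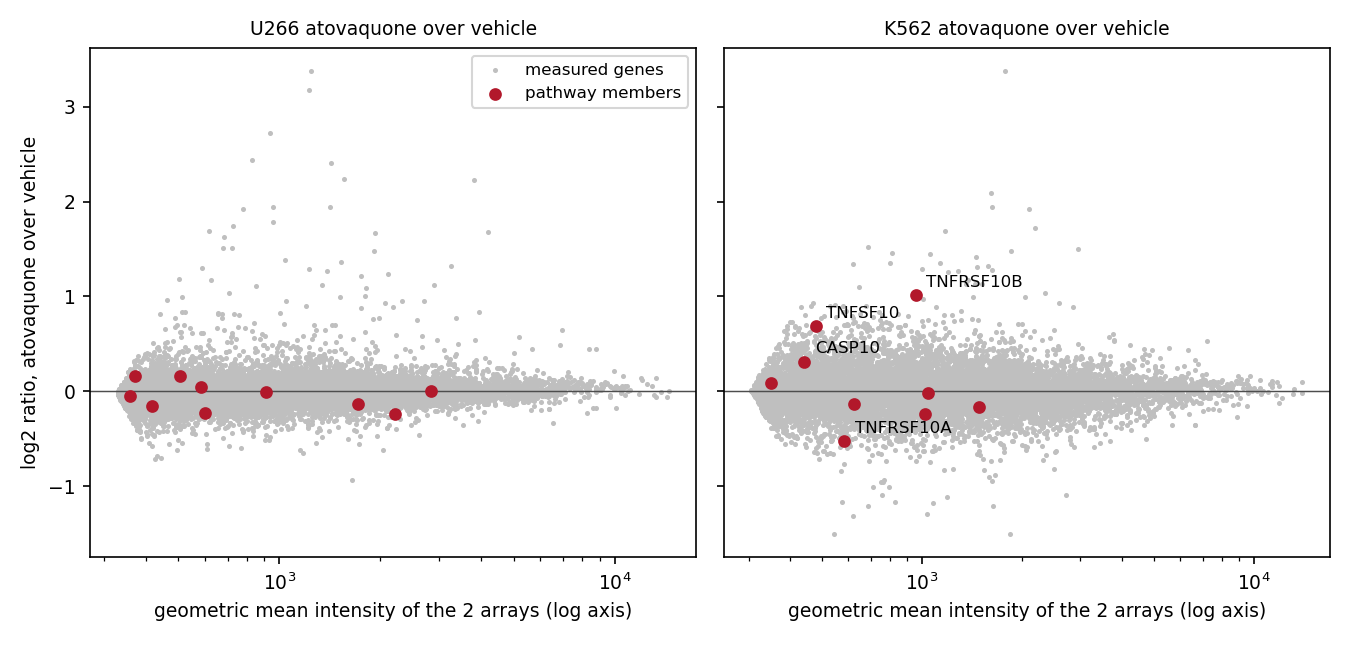
Log2 ratio of atovaquone to vehicle against the geometric mean intensity of both arrays (log axis) for all measured genes in grey and pathway members in red, U266 left and K562 right. Members in U266 stay within -0.24 and 0.16, whereas TNFRSF10B and TNFSF10 lie above the bulk and TNFRSF10A at its lower edge in K562.

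Between the vehicle arrays, 6 of 10 members were at least 1.5-fold different, 4 higher in U266 and 2 lower. Over the 12574 genes that reached the floor on at least 1 of those arrays, 38.7% were called in either direction. Of these genes 21.0% were higher in U266 and 17.7% lower, so large differences were common between these arrays. Vehicle was given for 2 h in U266 and 5 h in K562, so line and time cannot be told apart. The higher members were FAS, FADD, CASP8 and CFLAR, and the lower ones TNFRSF10B and TNFRSF1A. Of the 4, FAS, FADD and CASP8 were at least 2-fold higher, as were 11.2% of all genes in that direction. Receptors thus differed in both directions, while the adaptor, CASP8 and CFLAR were all brighter in U266. Of measured genes, 6.37% were as far from 0 as FADD, 10.1% as CASP8 and 18.8% as the brighter CFLAR set. For TNFRSF10B the share was 17.3% and for TNFRSF1A 24.5%. These ratios all lay inside the central range of measured genes, -1.51 to 1.68, and the dimmer CFLAR set, at 1.84, lay above it. TNFSF10, TNFRSF10A, TNFRSF10D and CASP10 had log2 ratios between -0.25 and 0.29. Over the 9 members measured on both vehicle arrays the median was 0.25, beside -0.0071 over all measured genes.

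**Figure D4:**
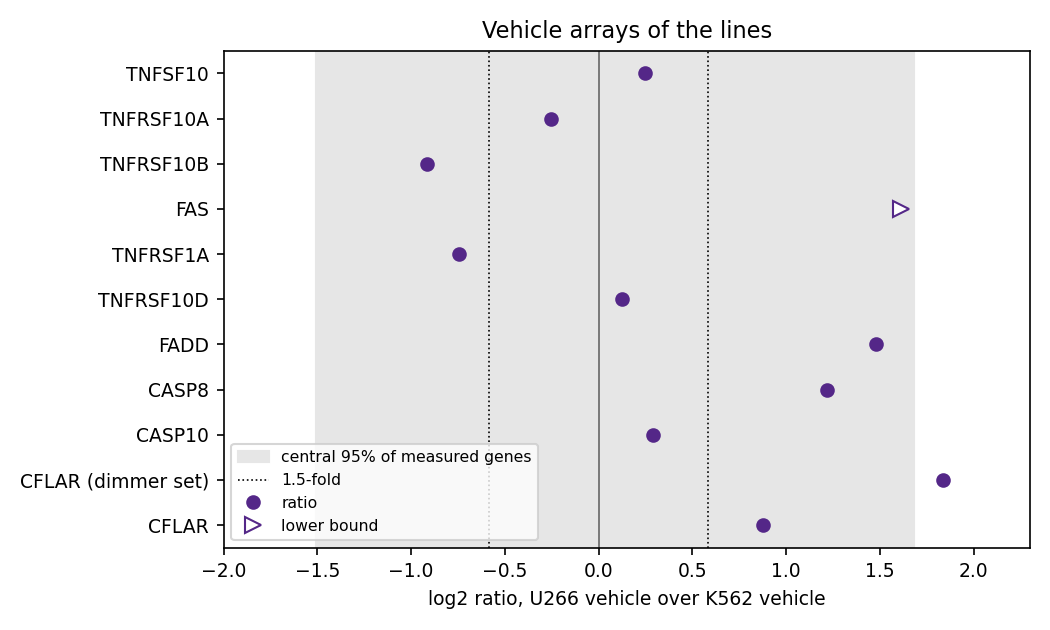
Log2 ratio of the U266 vehicle array to the K562 vehicle array for each pathway probe set, with circles for ratios, an open triangle for the lower bound of FAS, a grey band for the central 95% of measured genes (-1.51 to 1.68) and dotted lines at 1.5-fold. FADD at 1.48, CASP8 at 1.22 and FAS at 1.61 or more lie on the U266 side, and TNFRSF10B at -0.92 and TNFRSF1A at -0.75 on the K562 side.

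Other ligands and receptors of the family were often too dim to measure. Counts in the lists that follow are to be read beside the shares of all genes at 1.5-fold, which were 1.00% higher and 0.142% lower with atovaquone in U266, 1.55% higher and 0.687% lower with atovaquone in K562, and 21.0% higher and 17.7% lower in U266 between the vehicle arrays. Of 12 with a probe set of their own, 4 in U266 and 6 in K562 had an atovaquone ratio, and 0 were at least 1.5-fold different. The gene of Fas ligand, FASLG, and TNF itself were below the floor on all 4 arrays. The ratios furthest from 0 were those of LTA, the lymphotoxin gene, at 0.21 and NGFR at 0.14 in U266, and of TNFRSF12A, the receptor of TWEAK, at -0.26 and TNFRSF21 at 0.20 in K562. On the vehicle arrays 1 of 6 with a ratio or bound was higher in U266 by 1.5-fold or more and 4 were lower. The death receptor gene TNFRSF25 was 4.06-fold higher in U266. The other TNF receptor gene, TNFRSF1B, was at least 3.83-fold lower in U266, TNFRSF21 at least 1.93-fold lower and LTA 1.55-fold lower. LTA has several probe sets and changed direction with their choice.

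Genes of the complex at the TNF receptor included the ubiquitin ligases and kinases that pass its signal on. In U266, 0 of 14 were at least 1.5-fold different, with a median of -0.011, and TNFAIP3 stood at 0.28 and the ubiquitin ligase gene RNF31 at -0.20. In K562, 0 of the 13 measured on both arrays were, with a median of 0.022, and TNFAIP3 had only a bound. TNFAIP3, which encodes the ubiquitin editing enzyme A20, had an intensity of 435 with atovaquone and 124 with vehicle in K562, and so a lower bound of 0.52 on the log2 scale, which does not settle on which side of 1.5-fold it lay. Under a 20th percentile floor its bound was 1.59, past 1.5-fold. BIRC2, an inhibitor of apoptosis, stood at 0.30. Between the vehicle arrays 4 of 15 were higher in U266 by 1.5-fold or more, beside 21.0% of all genes, and 0 were lower, beside 17.7%. TNFAIP3 had a lower bound of 5.32-fold, CYLD, a deubiquitinase gene, had one of 4.58-fold, and the kinase subunit genes CHUK and IKBKG were 1.97-fold and 1.65-fold higher.

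Modifiers of the receptor complex held 1 gene past 1.5-fold in each line, and it was the same gene. DEDD2, whose protein carries a death effector domain, had an intensity of 1971 with atovaquone and 909 with vehicle in U266, and of 914 with atovaquone and 1386 with vehicle in K562. It was 2.18-fold higher with atovaquone in U266 and 1.51-fold lower in K562, where quantile normalisation left it just short of 1.5-fold at -0.58 on the log2 scale. The list's medians were 0.09 over 15 measured genes in U266 and 0.023 over 14 in K562. Between vehicle arrays 3 of 16 were higher in U266 by 1.5-fold or more and 2 lower. GALNT14, an enzyme that glycosylates TRAIL receptors, was at least 5.00-fold higher in U266, PEA15 1.86-fold higher, TMBIM1 2.75-fold lower and SRP72 2.08-fold lower.

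Caspases and genes of the mitochondrial link were not past 1.5-fold in either line, with 0 of 11 in U266 and 0 of 12 in K562 and medians of -0.024 in U266 and -0.040 in K562. BAK1 and DIABLO, a pore former and an antagonist of caspase inhibitors, stood at -0.27 and 0.24 in U266. In K562 the apoptosome gene APAF1 stood at -0.46 and CASP2 at -0.40. The vehicle arrays showed 2 of 12 higher in U266 by 1.5-fold or more and 1 lower. HTRA2, a mitochondrial protease gene, was 2.84-fold lower in U266, CASP9 was 1.60-fold and BAK1 1.79-fold higher, and CASP6 stood at -0.47 on the log2 scale. Downstream inhibitors gave 0 of 7 past 1.5-fold in U266 and 0 of 6 in K562. All 6 measured in K562 lay below 0, with a median of -0.19, led by BIRC6 at -0.38 and MCL1 at -0.21. Over all measured genes in K562, 48.85% lay above 0. All 6 inhibitors were inside the central range of measured genes given above, -0.42 to 0.48, and their shared direction was not tested. In U266 the median of the inhibitors was -0.085, with BCL2A1 at -0.26 and XIAP, the inhibitor of executioner caspases, at -0.23. On the vehicle arrays 3 of 7 were higher in U266 by 1.5-fold or more and 0 lower. BCL2 was at least 5.63-fold higher in U266 than in K562, and BCL2A1, MCL1 and BIRC6 were 1.72-fold, 1.52-fold and 1.45-fold higher, with MCL1 short of 1.5-fold under other centring.

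Necroptosis genes were measured for 3 of 4 in U266 and 1 of 4 in K562, with 0 past 1.5-fold. The kinase gene RIPK3 was below the floor on all 4 arrays. MLKL, whose protein ruptures the membrane, stood at 0.20 and ZBP1 at -0.16 in U266, and PGAM5 at -0.060 in K562. On the vehicle arrays 2 of 3 were higher in U266 and 0 lower, MLKL by at least 3.10-fold and ZBP1 by at least 2.74-fold. Under a 60th percentile floor the bounds of both were below 1.5-fold.

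The list of stress response genes, which includes the CHOP gene DDIT3, held more than 1 gene past 1.5-fold after atovaquone in each line. The list was chosen with earlier results of these data known, so its counts describe these genes and test nothing. In U266, 5 of 10 were at least 1.5-fold higher, beside 1.00% of all genes, and 0 lower, beside 0.142%. They were DDIT3 at 1.22, the phosphatase subunit gene PPP1R15A at 1.95, CHAC1 at 1.01, EIF2AK3, the gene of the kinase PERK, at 0.75, and ATF3 at 2.57 or more. In K562, 5 of 9 were higher, beside 1.55% of all genes, and 0 lower, beside 0.687%. They were DDIT3 at 2.09, TRIB3 at 1.72, PPP1R15A at 0.77, CHAC1 at 3.40 or more and ATF3 at 1.84 or more. DDIT3 was thus higher with atovaquone in both lines, with 2661 against 1153 for vehicle in U266 and 3331 against 783 for vehicle in K562. TNFRSF10B had log2 ratios of 0.16 in U266, where its vehicle value was just above the floor, and 1.01 in K562, as given above. A link between DDIT3 and TNFRSF10B was not tested, and dose and time differ between the lines. The list's median over measured genes was 0.10 in U266 and 0.36 in K562, or 0.43 in U266 and 0.77 in K562 with bounds counted at their limit. On the vehicle arrays 3 of 9 were higher in U266 by 1.5-fold or more, beside 21.0% of all genes, and 2 lower, beside 17.7%. CHAC1 had a lower bound of 4.26-fold and FOXO3 of 2.39-fold, and PPP1R15A and TRIB3 were 2.18-fold and 2.01-fold lower in U266.

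**Figure D5:**
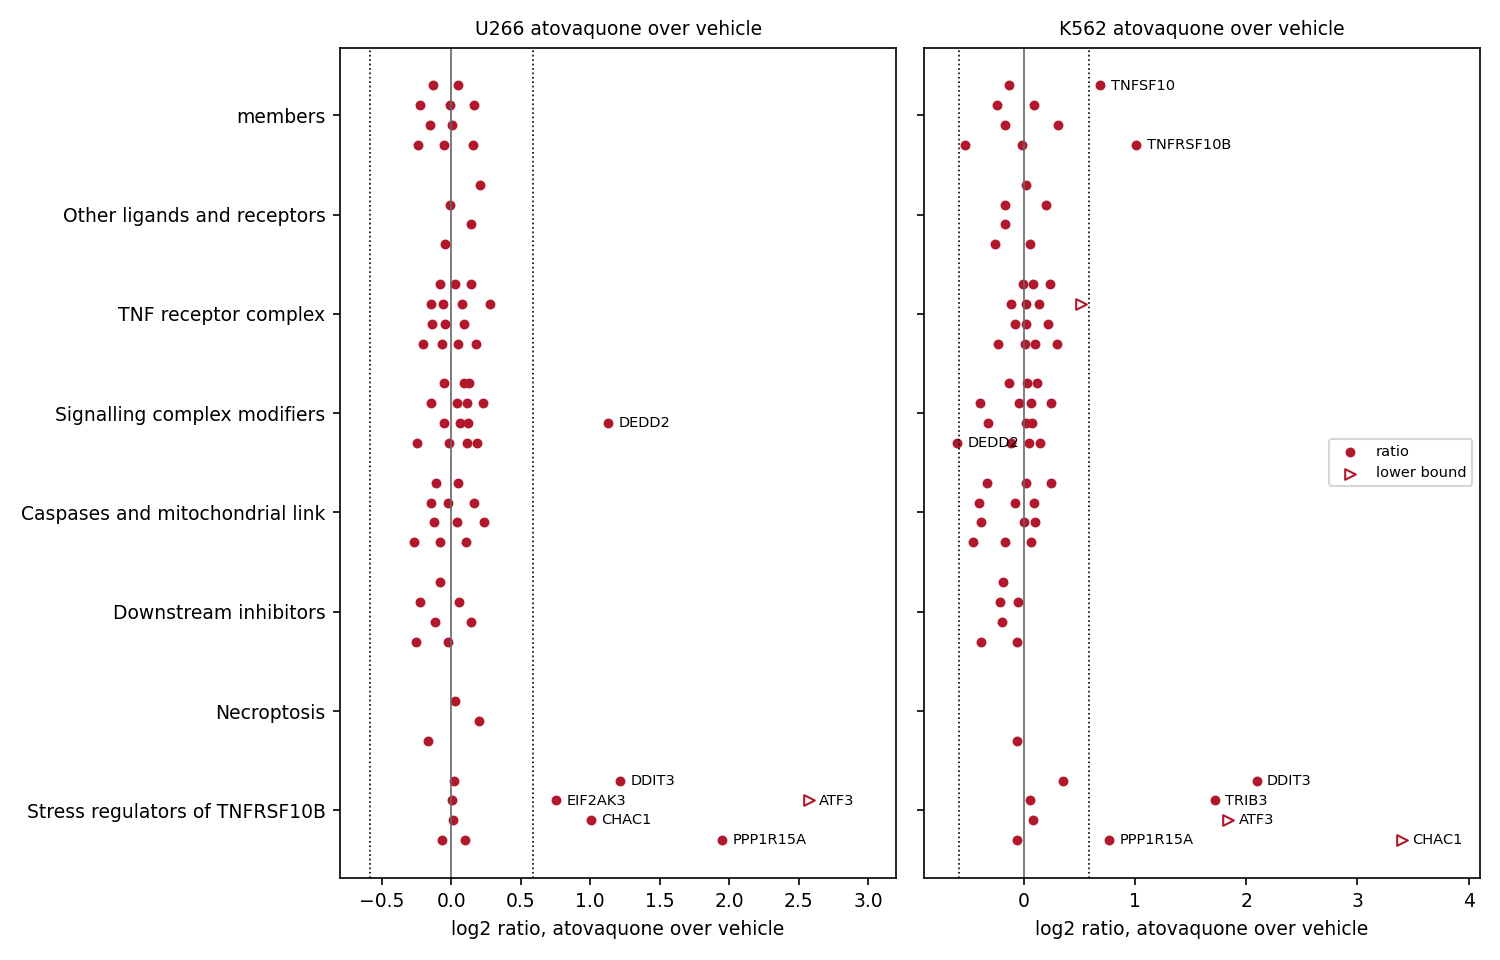
Log2 ratio of atovaquone to vehicle for the members and for 7 lists of related genes, U266 left and K562 right, with filled circles for ratios, open triangles for lower bounds and dotted lines at 1.5-fold. Genes past 1.5-fold are named: DEDD2 and 5 stress response genes in U266, and TNFRSF10B, TNFSF10, DEDD2 and 5 stress response genes in K562.

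The pattern of TNFRSF10B over the 4 arrays was set beside that of 9221 genes measured on all of them, as the Euclidean distance between log2 intensities centred on each gene's mean. The nearest was IDH1, the cytosolic isocitrate dehydrogenase, at a distance of 0.23, against a median of 1.54 over all these genes. IDH1 had intensities of 1044 with atovaquone and 1046 with vehicle in U266, and of 3359 with atovaquone and 1641 with vehicle in K562. ACSL1, RAB27A, IRAG2 and ITFG2 followed, at 0.37, 0.38, 0.38 and 0.43. Their K562 log2 ratios lay between 0.51 and 0.56, under that of TNFRSF10B. With only 4 arrays, such likeness is a description and no more.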

How the data were processed

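RNA of 4 cultures was labelled as biotinylated cRNA for Affymetrix arrays, per the labels' protocols. The authors deposited 1 intensity per probe set on a linear scale, and no source used here gives their software, background correction or normalisation. Of 33252 probe sets, 21214 were annotated, 19460 with 1 symbol, 1754 with several, and 12038 were not listed. Only those with 1 symbol were used, each gene by its brightest probe set. Intensities were put on the log2 scale, raised to the floor, and the log2 ratios were centred on the median of measured probe sets (-0.0096 in U266, -0.0048 in K562 and -0.025 between vehicle arrays). A gene under the floor on 1 array has a bound. Where floor and centring put that bound on the wrong side of 0, no value is given. Such a gene, as FAIM among the modifiers between vehicle arrays, stays in the number of genes counted. Members, gene lists and rules were chosen with earlier results of these data known. The text names all members, the list genes at least 1.5-fold different after atovaquone, otherwise up to 2 per list, up to 4 per list between vehicle arrays, and the 5 genes nearest to TNFRSF10B. With 1 array per group no test applies, and the number of arrays limits the precision. The calculation of ratios and calls was checked on simulated intensities with known folds. Python 3.11.15, pandas 2.3.3 and numpy 2.4.6 were used. Alternatives were other floors, quantile normalisation, other centring, other choices of probe set, and 16 added before log2.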

Additional observations from a re-analysis of the deposited data

Results flagged for a closer look

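DEDD2 differed in opposite directions in the lines. Its log2 ratio of atovaquone to vehicle was 1.13 in U266 and -0.60 in K562. The difference between the lines was not tested, since each ratio rests on 1 array per group, and dose and time differ as well. Of 9773 genes that reached the floor on at least 1 array of each line, 4 were at least 1.5-fold different in opposite directions. The others, named after their values were seen, were the HSP40 gene DNAJB1, at 2.23 in U266 and -0.83 in K562, and the small nucleolar RNA genes SNORD14C, at 1.68 and -1.09, and SNORD14E, at 2.73 and -1.51. After quantile normalisation DEDD2 stood at -0.58 in K562, just short of 1.5-fold.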

How the results depend on the processing

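The counts of members at least 1.5-fold different and the medians of members were recomputed under 10 alternatives in each of the 3 comparisons. Of these 60 values, 58 stayed within 1.5 times of the count, or within the SD of all measured log2 ratios of the median. That SD was 0.18 in U266, 0.23 in K562 and 0.76 between vehicle arrays, which is a wide margin for a median. Between vehicle arrays the 60th percentile floor took FAS and TNFRSF10B out of the count, which still stayed within 1.5 times. With the floor at the 60th percentile, 1 member in place of 2 was past 1.5-fold in K562, since TNFSF10 was under that floor on both arrays, and the median between vehicle arrays was 1.24 over the 3 members still measured. TNFRSF10B kept a K562 log2 ratio of 0.98 to 1.02 over 10 alternatives, and TNFSF10 0.66 to 0.69 over the 9 that gave it a ratio. The dimmer CFLAR set reached -0.61 in K562 with lower floors, and TNFAIP3 reached at least 1.59 under a 20th percentile floor and 1.82 with none. Between vehicle arrays LTA reversed, to 0.27 with the mean of its probe sets and to at least 1.23 with the dimmest. With the floor at the 60th percentile, lower bounds in U266 over K562 fell short of 1.5-fold for FAS at 0.55, BCL2A1 at 0.32, MLKL at 0.57, ZBP1 at 0.39 and FOXO3 at 0.19, while TNFRSF10B, LTA, TNFRSF21, NGFR and IKBKG had no ratio there. FOXO3 stood at 0.20 when probe sets with several symbols were taken. MCL1 lay between 0.54 and 0.58, just short of 1.5-fold, with no floor, the 20th percentile floor or other centring, and NGFR at -0.58 with 16 added. Over all genes, 113 were at least 1.5-fold higher and 16 lower in U266, against 210 and 106 with no floor, 37 lower with the 20th percentile as floor, and 66 and 5 when it was put at the 60th. In K562 the counts were 176 higher and 78 lower, against 359 and 190 with no floor, and 88 and 53 with the 60th percentile as the floor. No paired analysis was possible because each group holds 1 array, and for that reason no array could be left out. Probe sets near the floor, such as those of TNFRSF10D and of TNFRSF10B in U266, carry little signal over background.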
